A study of Mus musculus with 8 samples.

Results

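Epithelial-mesenchymal state was described through 10 genes, chosen by name among the 32728 genes of the count table: the cadherins Cdh1 and Cdh2, the transcription factors Zeb1, Zeb2, Twist1 and Snai1, the cytoskeletal genes Vim and Fscn1, and the matrix genes Fn1 and Sparc. Each name matched 1 Ensembl gene. Poly(A) RNA was sequenced in 8 libraries of mouse colon cancer organoids, 2 in each of 4 groups. The groups were CTO19 without EGF, CTO19 with EGF, apsMC706 without EGF and apsMC706 with EGF. CTO19 is labelled male and apsMC706 female, both lines come from C57BL/6 mice, and all groups carry CRISPR knockouts of Apc, Trp53 (p53) and Smad4. The control medium (EM) held B27, noggin, galunisertib and EGF, and its libraries were taken at 3 days. The other medium (noEGF) lacked EGF and its libraries were taken at 7 days, so EGF and days in culture cannot be told apart, nor can line and labelled sex. Noggin sequesters BMPs, galunisertib is a TGF-beta receptor kinase inhibitor, and Smad4 transmits the signals of both pathways. The labels do not say that the 2 libraries of a group came from separate cultures, so p-values measure the spread between libraries, which may be technical.

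Library totals ranged from 35650262 to 38953838 counts. Levels are CPM, counts relative to a library of 1e6 scaled by TMM factors, and a count of 0 allowed up to 3 counts, 0.0745 to 0.0868 CPM, in 1 library, which covers counting error only. The share of mitochondrial counts was 4.13 to 5.19% in noEGF and 2.94 to 3.68% in EM, and the part of this shift in the responses was not tested. Counts of Apc, Trp53 and Smad4 were present in every library (59.8 to 198, 13 to 33.3 and 10.8 to 39.9 CPM), and with no unedited sample these levels check no label. Of 8 intestinal epithelial markers, Epcam was high in every library (558 and 604 CPM in CTO19 noEGF, 345 and 380 in CTO19 EM, 630 and 648 in apsMC706 noEGF, 470 and 475 in apsMC706 EM). Cdh17, a cadherin of intestinal epithelium, went against the colon label in CTO19, with 4.25 and 7.20 CPM in noEGF and 1.27 and 1.24 CPM in EM, against 311 and 310 CPM in apsMC706 noEGF and 339 and 333 CPM in apsMC706 EM. Hnf4a, a transcription factor of intestinal epithelium, stayed under 1 CPM in the 4 CTO19 libraries and at 52.0 CPM or more in the 4 apsMC706 libraries. Vil1 (25.8 to 62.4 CPM), Lgals4 (8.39 to 18.3 CPM) and Cdx2 (0.861 to 2.3 CPM) were present in CTO19. In apsMC706 they were higher (166 to 226, 186 to 405 and 9.23 to 10.2 CPM). Cdx1 and Krt20 were at or under 0.140 CPM in all 8 libraries. In bulk RNA, fewer cells of a type and less RNA per cell cannot be told apart.

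Epithelial cells hold together through adherens junctions, in which E-cadherin (Cdh1) binds its like on the neighbouring cell. In an epithelial-mesenchymal transition, transcription factors of the Snail, Zeb and Twist families repress Cdh1 by binding E-box sequences, N-cadherin (Cdh2) may replace E-cadherin, and cells gain vimentin filaments (Vim), fascin-bundled actin (Fscn1) and matrix proteins such as fibronectin (Fn1) and the collagen-binding glycoprotein osteonectin (Sparc). The change is often partial, and members of the set can move apart from each other. TGF-beta is a well-known inducer, acting in part through Smad4.

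The promoter table from RefSeq (GRCm38.p6) held 9 windows of 300 bases, 250 before and 50 after an annotated start, for 6 of the 10 genes (Zeb2 with 4 windows, and Twist1, Snai1, Vim, Fscn1 and Sparc). Because the Snail and Zeb proteins bind the E-box CAGGTG, each window was searched for CAGGTG on both strands, and for the broader E-box CANNTG, which includes it. The windows of Snai1 and Sparc are shown because they held CAGGTG on either strand, and those of Vim and Fscn1 because these genes divided the lines in opposite directions and their windows held neither form. Capitals mark CAGGTG or its reverse complement, and each sequence runs 5′ to 3′ on the gene's strand, at chr2:167537945-167538244 (+) for Snai1, chr11:55420031-55420330 (-) for Sparc, chr2:13574061-13574360 (+) for Vim and chr5:142960105-142960404 (+) for Fscn1.
Snai1: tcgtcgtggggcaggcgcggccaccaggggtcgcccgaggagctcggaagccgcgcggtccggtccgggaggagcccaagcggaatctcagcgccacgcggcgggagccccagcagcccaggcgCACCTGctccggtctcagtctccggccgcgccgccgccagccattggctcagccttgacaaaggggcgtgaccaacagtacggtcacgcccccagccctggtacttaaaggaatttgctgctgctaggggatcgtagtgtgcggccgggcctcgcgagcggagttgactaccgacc
Sparc: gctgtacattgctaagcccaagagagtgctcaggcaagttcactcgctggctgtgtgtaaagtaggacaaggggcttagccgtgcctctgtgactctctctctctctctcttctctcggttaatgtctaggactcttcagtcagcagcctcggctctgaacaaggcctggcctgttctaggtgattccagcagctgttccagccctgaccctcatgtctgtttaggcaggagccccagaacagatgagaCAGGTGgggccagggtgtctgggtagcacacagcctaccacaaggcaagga
Vim: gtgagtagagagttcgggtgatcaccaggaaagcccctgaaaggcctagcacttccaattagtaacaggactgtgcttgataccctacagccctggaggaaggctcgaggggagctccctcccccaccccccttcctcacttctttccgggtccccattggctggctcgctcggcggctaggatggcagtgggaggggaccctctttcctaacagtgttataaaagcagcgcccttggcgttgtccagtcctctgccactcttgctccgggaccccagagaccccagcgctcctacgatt
Fscn1: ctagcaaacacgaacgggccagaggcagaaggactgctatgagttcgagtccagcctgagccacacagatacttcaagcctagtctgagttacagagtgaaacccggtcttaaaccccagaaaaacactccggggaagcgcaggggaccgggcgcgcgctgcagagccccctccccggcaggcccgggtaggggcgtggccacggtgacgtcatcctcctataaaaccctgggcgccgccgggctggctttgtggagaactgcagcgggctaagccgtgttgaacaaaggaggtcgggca
The motif began 126 bases before the annotated start in Snai1 and 1 base before it in Sparc. CANNTG was found in the same 2 windows, at 3 places in Sparc and 1 in Snai1. Of all 32851 windows in the table, 20.2% held CAGGTG and 72.3% held CANNTG. A match is a run of letters and no measured binding site.

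The 10 genes fell into 3 kinds by level. Cdh1 was high in every library, though lower in CTO19 than in apsMC706. Cdh2 and Twist1 were at or near 0 in every library. The other 7 differed more between the lines than Cdh1 did. Scaled to exon length (CPM per kb of exon), Cdh1 was the highest of the 10 in every group, at 175 ± 2.18 in CTO19 noEGF, 132 ± 3.82 in CTO19 EM, 192 ± 1.80 in apsMC706 noEGF and 204 ± 1.79 in apsMC706 EM (mean ± SD, n = 2 each, as in all groups below). On this scale Cdh1 ranked 392, 565, 412 and 392 in these 4 groups, in the same order, among 16713 genes with a length.

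What stood behind Cdh1 differed by group. In CTO19 noEGF the order per kb was Fn1 (41.6 ± 5.27), Fscn1 (25.1 ± 2.62), Sparc (7.18 ± 0.800) and Vim (0.697 ± 0.199). In CTO19 EM it was Fscn1 (78.4 ± 0.229), Sparc (12 ± 0.529), Fn1 (10.1 ± 1.62) and Vim (1.60 ± 0.0767), where Sparc and Fn1 did not differ beyond their spread. In apsMC706 the order was Vim and then Fn1 in both media, with Vim at 36.1 ± 0.149 in noEGF and 36.3 ± 0.640 in EM, and Fn1 at 4.03 ± 0.209 in noEGF and 1.93 ± 0.0868 in EM. Snai1 came next in apsMC706, at 0.736 ± 0.0185 in noEGF and 0.828 ± 0.0170 in EM. Zeb1, Zeb2, Fscn1 and Sparc were each under 0.05 CPM per kb there, and their order among themselves rests on 1 to 14 counts per group. Beside a high Cdh1, the lines thus differed in the cytoskeletal and matrix genes of the list. Fscn1 and Sparc were near 0 in apsMC706, and Vim was higher in apsMC706. Fn1 was present in both lines and higher in CTO19.

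**Figure D1:**
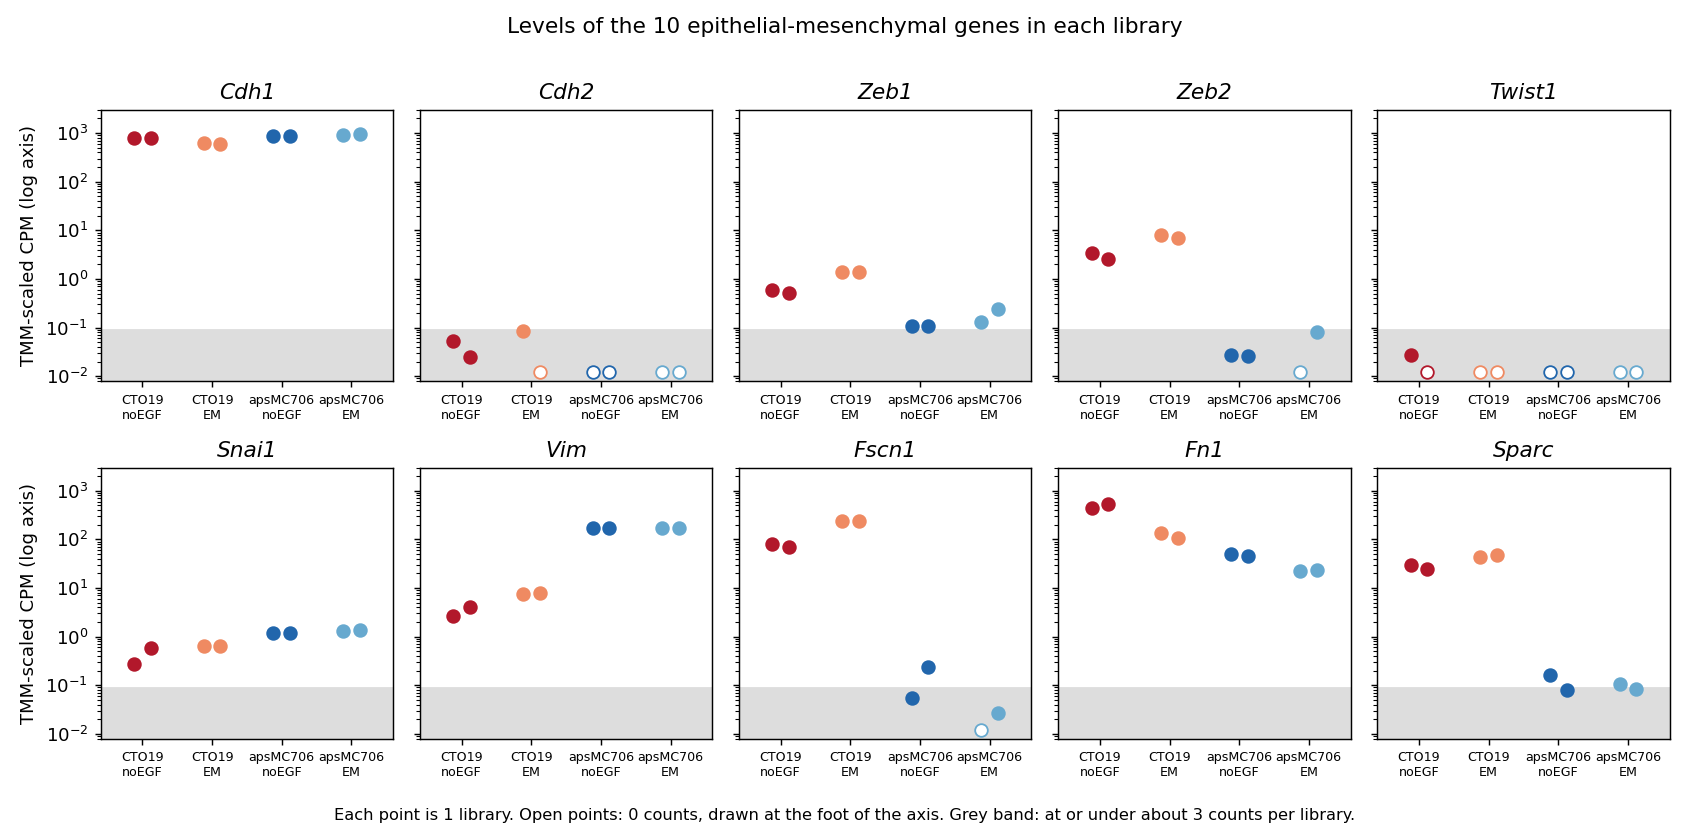
Level of each of the 10 genes in each of the 8 libraries, in CPM on a log axis, 1 point per library, with the groups in the order CTO19 noEGF, CTO19 EM, apsMC706 noEGF and apsMC706 EM. Open points are libraries with 0 counts and the grey band lies at or under about 3 counts. Cdh1 is high throughout, Fscn1 and Sparc are high in the 4 CTO19 libraries, and Vim is high in the 4 apsMC706 libraries.

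**Figure D2:**
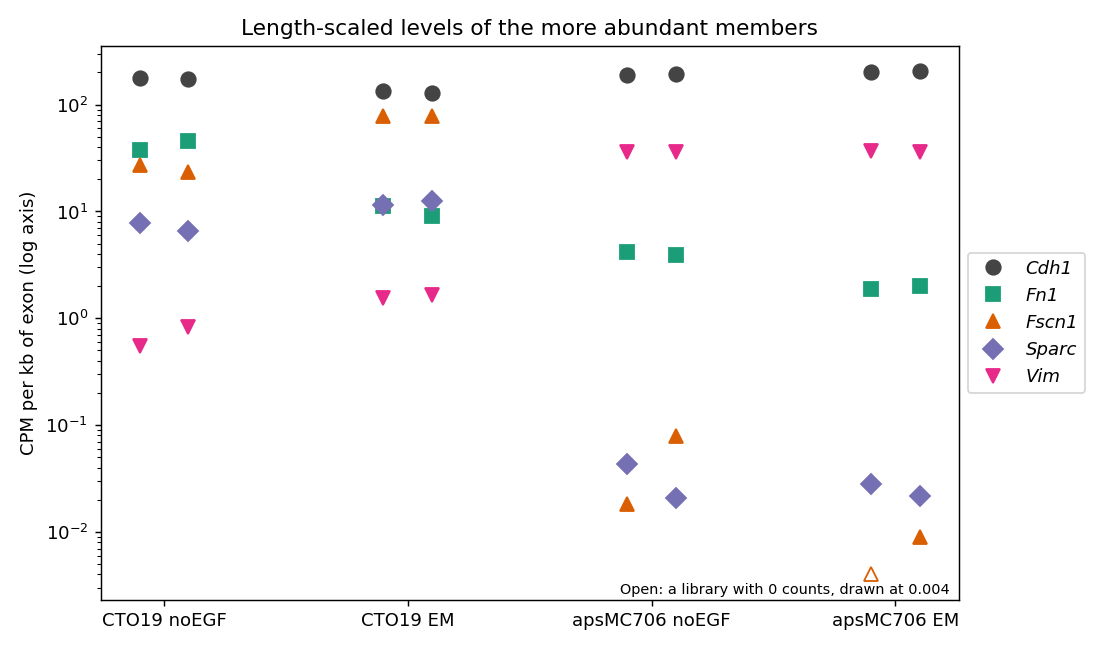
CPM per kb of exon of Cdh1, Fn1, Fscn1, Sparc and Vim on a log axis, 1 point per library, with an open point for a library with 0 counts. Cdh1 is on top in all 8 libraries, and the gene next to it is Fn1 in CTO19 noEGF, Fscn1 in CTO19 EM and Vim in both apsMC706 groups.

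Of the 10 genes, 8 could be tested. Cdh2 and Twist1 did not reach the filter on low counts, and Zeb1, Zeb2, Fscn1 and Sparc reached it only through CTO19, so these 4 had to be higher in CTO19 and their calls between the lines are a description. With noEGF against EM in CTO19, 2 of the 8 rose (Cdh1 and Fn1) and 5 fell (Zeb1, Zeb2, Vim, Fscn1 and Sparc), where 68.0% of all 16719 tested genes passed in either direction, 34.7% higher and 33.3% lower. In apsMC706, 1 of the 8 rose (Fn1) and 0 fell, where 67.2% of tested genes passed, 34.1% higher and 33.1% lower. Zeb1, Zeb2, Fscn1 and Sparc had 1 to 14 counts per group in apsMC706, so depth limited whether they could pass. At an unadjusted p under 0.05 the apsMC706 counts were 2 higher and 1 lower, while limma-voom called 1 lower (Cdh1) and DESeq2 called 0 lower. The difference between the lines' responses, CTO19 minus apsMC706, passed for 4 of the 8, positive for Cdh1 and Fn1 and negative for Vim and for Fscn1, which had 11 counts in noEGF and 1 in EM in apsMC706, where 56.0% of tested genes passed, 30.4% positive and 25.6% negative. Over both lines in 1 model, 1 of the 8 rose (Fn1) and 4 fell (Zeb1, Zeb2, Fscn1 and Sparc). Those that fell had few counts in apsMC706, so their values over both lines rest on CTO19. Of tested genes, 48.8% passed, 25.5% higher and 23.3% lower. This count of 5 was 2 or 3 without any 1 of the CTO19 libraries (2 without EM replicate 1 or noEGF replicate 2, 3 without EM replicate 2 or noEGF replicate 1). Between the lines, CTO19 against apsMC706, 5 were higher and 3 lower in noEGF, where 80.0% of tested genes passed (45.7% higher, 34.3% lower), and the same numbers held in EM, where 71.3% passed (37.5% higher, 33.8% lower). The share of the 8 genes that passed is not set above or below these background shares here. The median log2 fold change of all tested genes lay between 0 and 0.13 in these 6 comparisons.

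**Figure D3:**
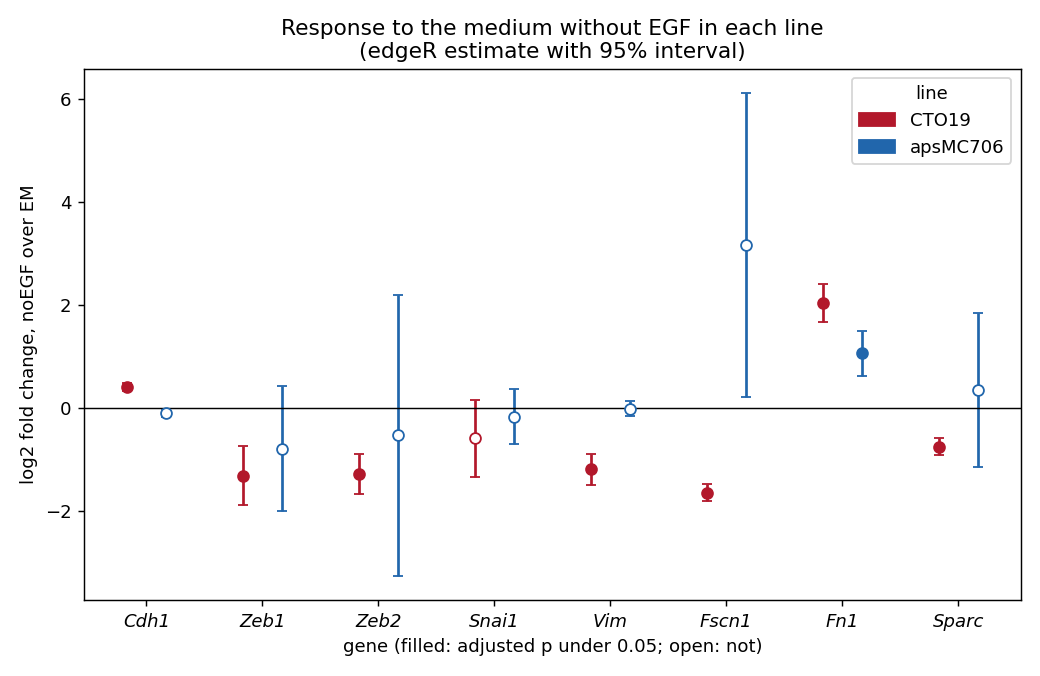
Log2 fold change of noEGF over EM for the 8 tested genes in CTO19 (red) and apsMC706 (blue), as the edgeR estimate with its 95% interval, filled where the adjusted p was under 0.05. In CTO19, 7 of the 8 points are filled, 2 above 0 and 5 below. In apsMC706 only Fn1 is filled, and the intervals of Zeb2 and Fscn1 are wide.

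Cdh1 (ENSMUSG00000000303, chr8:106603351-106670246, plus strand), E-cadherin, holds the epithelial sheet together. It had 807 and 792 CPM in CTO19 noEGF, 616 and 591 CPM in CTO19 EM, 874 and 886 CPM in apsMC706 noEGF and 929 and 940 CPM in apsMC706 EM. The libraries of the 4 groups did not overlap, with CTO19 EM the lowest. In CTO19 it rose without EGF, 1.32-fold (log2 fold change 0.41, SE 0.0370, adjusted p = 1.87e-07 by edgeR's quasi-likelihood test with Benjamini-Hochberg adjustment, as for all tests here). In apsMC706 the log2 fold change was -0.09 (SE 0.0368, adjusted p = 0.0504, 95% interval -0.17 to -0.01), just outside the threshold, and it took the other sign without either CTO19 noEGF library (0.01 without replicate 1 and 0.01 without replicate 2). It passed without either CTO19 EM library (adjusted p = 0.00562 without replicate 1 and 0.00556 without replicate 2). The responses differed by 0.49 (SE 0.0522, adjusted p = 1.44e-06). Cdh1 was 1.55-fold lower in CTO19 than in apsMC706 in EM (log2 fold change -0.63, SE 0.0370, adjusted p = 7.39e-10) and 1.1-fold lower in noEGF (log2 fold change -0.14, SE 0.0368, adjusted p = 0.00305). That smaller difference was -0.24 without CTO19 noEGF replicate 1 and -0.21 without replicate 2. In these 2 fits the median of all tested genes also shifted, by -0.0922 and -0.0891. For the apsMC706 response the median shifted by 0.0917 without either library. Over both lines the log2 fold change of Cdh1 was 0.16 (SE 0.110, adjusted p = 0.267, 95% interval -0.10 to 0.42).

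Cdh2 (ENSMUSG00000024304, chr18:16588877-16809246, minus strand), N-cadherin of neural and mesenchymal cells, was at or near 0. It had 0.0538 and 0.0248 CPM in CTO19 noEGF and 0.0868 and 0 CPM in CTO19 EM, which is 3 counts in each group, and 0 counts in the 4 apsMC706 libraries. No library lay above about 3 counts, so no switch from Cdh1 to Cdh2 in level was detectable at this depth. Other cadherins did differ between the lines. Cdh3 averaged 68.1 CPM in CTO19 noEGF and 94.6 CPM in CTO19 EM, against 0.12 CPM in apsMC706 noEGF and 0.0805 CPM in apsMC706 EM. Cdh4 averaged 0.0124 CPM in CTO19 noEGF and 0.0421 CPM in CTO19 EM, against 12.6 CPM in apsMC706 noEGF and 8.51 CPM in apsMC706 EM.

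Among the transcription factors, the Zeb genes were higher in CTO19 than in apsMC706 and fell there without EGF, and Snai1 was higher in apsMC706. All were low in CTO19. Per kb of exon, Snai1, Zeb2 and Zeb1 stood at 0.259, 0.153 and 0.0542 in CTO19 noEGF. In CTO19 EM they stood at 0.396, 0.37 and 0.135. Zeb2 (ENSMUSG00000026872, chr2:44983632-45117395, minus strand), a zinc-finger repressor of Cdh1, had 3.47 and 2.63 CPM in CTO19 noEGF and 7.90 and 6.85 CPM in CTO19 EM, against 0.0273 and 0.0264 CPM in apsMC706 noEGF and 0 and 0.0817 CPM in apsMC706 EM. All CTO19 libraries lay above all apsMC706 libraries, which held 2 counts in noEGF and 3 counts in EM. In CTO19 Zeb2 fell 2.42-fold without EGF (log2 fold change -1.28, SE 0.178, adjusted p = 1.54e-05). The ratio of CTO19 to apsMC706 was 113 in noEGF (235 against 2 counts, 95% counting interval 31.0 to 939) and 183 in EM (517 against 3 counts, 62.3 to 891). The log2 fold change in apsMC706 was -0.53 (SE 1.27, adjusted p = 0.738) on 5 counts in all, and the difference of the responses was -0.75 (SE 1.57, adjusted p = 0.721). Without apsMC706 EM replicate 2 the apsMC706 value was 3.17, and without apsMC706 EM replicate 1 the difference was 0.23. Over both lines the value was -1.22 (SE 0.323, adjusted p = 0.0174), which did not pass without CTO19 EM replicate 1 (adjusted p = 0.0712) or CTO19 noEGF replicate 2 (adjusted p = 0.0898).

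Zeb1 (ENSMUSG00000024238, chr18:5591860-5775467, plus strand), the related repressor, had 0.592 and 0.522 CPM in CTO19 noEGF and 1.36 and 1.40 CPM in CTO19 EM, against 0.109 and 0.106 CPM in apsMC706 noEGF and 0.132 and 0.245 CPM in apsMC706 EM. The groups did not overlap, and apsMC706 held 8 counts in noEGF and 14 in EM. In CTO19 Zeb1 fell 2.48-fold without EGF (log2 fold change -1.31, SE 0.266, adjusted p = 0.000508). In apsMC706 the log2 fold change was -0.79 (SE 0.563, adjusted p = 0.250), and the 95% interval of the difference of the responses, -1.96 to 0.92, held 0 (-0.52, SE 0.672, adjusted p = 0.560). Over both lines it fell by 1.17 on the log2 scale (SE 0.230, adjusted p = 0.00506). The ratio of CTO19 to apsMC706 was 5.17 in noEGF (43 against 8 counts, 95% counting interval 2.4 to 12.7). In EM it was 7.36 (97 against 14 counts, 4.18 to 14). Zeb1 reached the filter on low counts through CTO19 alone, so these ratios are a description.

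Snai1 (ENSMUSG00000042821, chr2:167538195-167542814, plus strand), the Snail repressor of Cdh1, was low everywhere. It had 0.269 and 0.571 CPM in CTO19 noEGF, 0.637 and 0.646 CPM in CTO19 EM, 1.17 and 1.21 CPM in apsMC706 noEGF and 1.32 and 1.36 CPM in apsMC706 EM. All apsMC706 libraries lay above all CTO19 libraries, the reverse of the Zeb genes. Snai1 was 2.79-fold lower in CTO19 than in apsMC706 in noEGF (log2 fold change -1.48, SE 0.306, adjusted p = 0.000421; -2.22 without CTO19 noEGF replicate 2) and 2.09-fold lower in EM (log2 fold change -1.06, SE 0.283, adjusted p = 0.00365). Its response to the medium did not pass in CTO19, at -0.59 on the log2 scale (SE 0.347, adjusted p = 0.147, 95% interval -1.33 to 0.16), except without CTO19 noEGF replicate 2 (-1.23, adjusted p = 0.0217). In apsMC706 it was -0.17 (SE 0.250, adjusted p = 0.577), over both lines -0.35 (SE 0.231, adjusted p = 0.250), and the difference of the responses was -0.42 (SE 0.428, adjusted p = 0.430). Twist1 (ENSMUSG00000035799, chr12:33957671-33959829, plus strand), a helix-loop-helix factor of mesoderm, had 1 count in CTO19 noEGF replicate 1 and 0 in the other 7 libraries.

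Vim and Fscn1, both linked to cell shape and movement, divided the lines in opposite directions. Vim (ENSMUSG00000026728, chr2:13573927-13582826, plus strand), the intermediate filament of mesenchymal cells, had 2.64 and 3.97 CPM in CTO19 noEGF and 7.35 and 7.86 CPM in CTO19 EM, against 171 and 172 CPM in apsMC706 noEGF and 174 and 170 CPM in apsMC706 EM. CTO19 was low and fell further without EGF, while the apsMC706 media overlapped. The fall in CTO19 was 2.29-fold (log2 fold change -1.19, SE 0.134, adjusted p = 1.20e-05). In apsMC706 the log2 fold change was -0.01 (SE 0.0650, adjusted p = 0.945, 95% interval -0.15 to 0.14), with a sign that turned under other scalings. The responses differed by -1.18 (SE 0.150, adjusted p = 4.29e-05), and over both lines the value did not pass (-0.53, SE 0.247, adjusted p = 0.115). CTO19 was 51.4-fold lower than apsMC706 in noEGF (log2 fold change -5.68, SE 0.0981, adjusted p = 3.98e-13) and 22.6-fold lower in EM (log2 fold change -4.50, SE 0.0879, adjusted p = 1.39e-12). Per kb of exon and per 1000 of Cdh1, Vim stood at 3.15 and 4.84 in CTO19 noEGF, 11.5 and 12.8 in CTO19 EM, 188 and 187 in apsMC706 noEGF and 181 and 174 in apsMC706 EM.

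Fscn1 (ENSMUSG00000029581, chr5:142960343-142973185, plus strand), the actin-bundling protein of filopodia, had 81.3 and 70.1 CPM in CTO19 noEGF and 236 and 236 CPM in CTO19 EM, against 0.0545 and 0.238 CPM in apsMC706 noEGF and 0 and 0.0272 CPM in apsMC706 EM. It was high in CTO19 and near 0 in apsMC706, with no overlap. In CTO19 it fell 3.12-fold without EGF (log2 fold change -1.64, SE 0.0772, adjusted p = 3.88e-08). The ratio of CTO19 to apsMC706 was 512 in noEGF (5847 against 11 counts, 95% counting interval 286 to 1026) and 17590 in EM (16559 against 1 count, 3157 to 694820).

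The apsMC706 response of Fscn1 rested on 11 counts in noEGF and 1 in EM, a ratio of 11.0 (95% counting interval 1.60 to 473), and did not pass (log2 fold change 3.17, SE 1.31, adjusted p = 0.0557). Over 16 alternative settings it ranged from 1.78 to 5.49, with adjusted p from 0.00352 to 0.350, and passed in 9. It was 1.78 without apsMC706 noEGF replicate 2 (adjusted p = 0.350), 2.30 without apsMC706 EM replicate 1 (0.191) and 5.49 without apsMC706 EM replicate 2 (0.0649). It passed without apsMC706 noEGF replicate 1 (3.84, adjusted p = 0.00962), CTO19 noEGF replicate 1 (3.25, 0.00580) or CTO19 noEGF replicate 2 (3.25, 0.00578). Most of those counts came from apsMC706 noEGF replicate 2. In that library the basal keratins Krt5 and Krt14, named here after their values were seen, had 3.54 and 3.64 CPM, against 0.927 and 0.982 CPM in apsMC706 noEGF replicate 1, and against 1.56 and 1.63 CPM (Krt5) and 1.63 and 1.08 CPM (Krt14) in apsMC706 EM. In CTO19, Krt5 averaged 2225 ± 212 CPM in noEGF and 3791 ± 78.0 CPM in EM, and Krt14 averaged 2524 ± 160 CPM in noEGF and 3480 ± 74.7 CPM in EM. Of other genes high in CTO19, Cdh3 had 0.185 CPM in that apsMC706 library and 0.0545 CPM in noEGF replicate 1 (7 and 2 counts). Tpm2 (0.106 and 0.0818 CPM, 4 and 3 counts), Lamb1 (0.343 and 0.300 CPM, 13 and 11 counts) and Tgfbi (0.0792 and 0 CPM, 3 and 0 counts) were higher there by few counts. Sparc (0.0792 and 0.164 CPM, 3 and 6 counts) and Snai2 (0 and 0.0273 CPM, 0 and 1 count) were lower there, also by few counts. The part of these levels in the Fscn1 value was not tested. The difference of the Fscn1 responses was -4.81 (SE 1.25, adjusted p = 0.00836), which did not pass without apsMC706 noEGF replicate 2 (-3.42, adjusted p = 0.117), CTO19 EM replicate 1 (adjusted p = 0.0570) or CTO19 EM replicate 2 (adjusted p = 0.0585). Over both lines the value was -1.43 (SE 0.403, adjusted p = 0.0222), which did not pass without CTO19 EM replicate 1 (adjusted p = 0.0773), CTO19 EM replicate 2 (0.0804), CTO19 noEGF replicate 1 (0.0986) or CTO19 noEGF replicate 2 (0.116), and took the other sign with DESeq2 (0.28, adjusted p = 0.851).

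Of the matrix genes, Fn1 rose without EGF in both lines and Sparc fell in CTO19. Fn1 (ENSMUSG00000026193, chr1:71585520-71653200, minus strand), fibronectin, which integrins bind, had 443 and 530 CPM in CTO19 noEGF, 132 and 105 CPM in CTO19 EM, 48.8 and 45.3 CPM in apsMC706 noEGF and 21.9 and 23.3 CPM in apsMC706 EM. The 4 groups did not overlap. The rise in CTO19 was 4.11-fold (log2 fold change 2.04, SE 0.142, adjusted p = 8.91e-05), 2.08-fold in apsMC706 (log2 fold change 1.06, SE 0.166, adjusted p = 0.00275) and 2.95-fold over both lines (log2 fold change 1.56, SE 0.211, adjusted p = 0.00108). The responses differed by 0.98 (SE 0.217, adjusted p = 0.0135), which did not pass with no filter on low counts (adjusted p = 0.0537). Fn1 was 10.3-fold higher in CTO19 than in apsMC706 in noEGF (log2 fold change 3.37, SE 0.153, adjusted p = 8.52e-06) and 5.23-fold higher in EM (log2 fold change 2.39, SE 0.161, adjusted p = 6.46e-05). Of the 10 genes, Fn1 was the 1 past the threshold in each line and in the same direction.

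Fibroblasts also make fibronectin. The summed level of 8 fibroblast markers was 11.4 to 11.9 CPM in CTO19 noEGF, 1.88 to 2.11 CPM in CTO19 EM, 0.449 to 0.791 CPM in apsMC706 noEGF and 0.245 to 0.265 CPM in apsMC706 EM. Decorin (Dcn), at 10.3 and 9.49 CPM in CTO19 noEGF, made up most of the first sum, and 7 of the 8 markers stayed at or under 1 CPM in both of those libraries. Dpt was at 0 in all 8 libraries and Lum was at 0 in 7. Summed over 6 immune markers the level was 39.8 to 44.8 CPM in CTO19 noEGF, 15.9 to 17 CPM in CTO19 EM, 12.8 to 13.8 CPM in apsMC706 noEGF and 7.57 to 8.14 CPM in apsMC706 EM, mostly from Cd14, and Ptprc, which marks leukocytes in general, was at or under 0.140 CPM in all 8 libraries. The 6 endothelial markers summed to 7.95 to 8.5 CPM in CTO19 noEGF, 2.5 to 2.95 CPM in CTO19 EM, 28 to 28.1 CPM in apsMC706 noEGF and 6.61 to 7.73 CPM in apsMC706 EM, mostly from Vwf except in CTO19 EM, and Cldn5 was at 0 in all 8 libraries. The 5 muscle and glia markers summed to 3.15 to 4.89 CPM over the 8 libraries. The part of these markers in the Fn1 values, or in those of Vim and Sparc, was not tested.

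Sparc (ENSMUSG00000018593, chr11:55394500-55423183, minus strand), osteonectin, had 29.3 and 25.0 CPM in CTO19 noEGF and 44.1 and 47.0 CPM in CTO19 EM, against 0.164 and 0.0792 CPM in apsMC706 noEGF and 0.106 and 0.0817 CPM in apsMC706 EM. It was expressed in CTO19 and near the floor in apsMC706, where the media overlapped. In CTO19 it fell 1.68-fold without EGF (log2 fold change -0.75, SE 0.0747, adjusted p = 5.07e-07). In apsMC706 the value was 0.35 (SE 0.694, adjusted p = 0.681) on 9 counts in noEGF and 7 in EM, and -0.24 without apsMC706 noEGF replicate 1. The difference of the responses was -1.1 (SE 0.712, adjusted p = 0.209). The ratio of CTO19 to apsMC706 was 224 in noEGF (95% counting interval 118 to 491) and 485 in EM (235 to 1208). Over both lines the value was -0.63 (SE 0.182, adjusted p = 0.0240), which did not pass without CTO19 EM replicate 1 (adjusted p = 0.0740), CTO19 EM replicate 2 (0.101), CTO19 noEGF replicate 1 (0.0824) or CTO19 noEGF replicate 2 (0.134).

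Other genes of the same processes were counted in 9 lists, whose counts are read against all tested genes, of which 34.7% rose and 33.3% fell in CTO19 (median log2 fold change 0.02) and 34.1% rose and 33.1% fell in apsMC706 (median 0). The difference of the responses passed for 56.0% of all tested genes, positive for 30.4% and negative for 25.6% (median 0.06). Of 12 other EMT transcription factors, 9 were tested. In CTO19, 4 rose and 3 fell without EGF (median log2 fold change 0.40), in apsMC706 2 rose and 2 fell (median 0.15), and the difference of the responses passed for 4 of the 9, all positive (median -0.01, against 56.0% of all tested genes, 30.4% positive). Snai2 (Slug), the Snail family member of basal epithelia, had 26.2 and 22.4 CPM in CTO19 noEGF and 72.0 and 69.6 CPM in CTO19 EM, against 0.0273 and 0 CPM in apsMC706 noEGF and 0.0529 and 0.0272 CPM in apsMC706 EM. It was present in CTO19 alone above the floor, where Snai1 was lower than in apsMC706. In CTO19 Snai2 fell without EGF (log2 fold change -1.54, SE 0.0705, adjusted p = 1.46e-10), as did Twist2 (-1.66, SE 0.246, adjusted p = 5.61e-05), with 0.699 and 0.621 CPM in CTO19 noEGF, 2.00 and 2.19 CPM in CTO19 EM and 0 counts in apsMC706. Foxq1, a forkhead factor that represses Cdh1 in mammary cells, rose 3.47-fold over both lines (log2 fold change 1.79, SE 0.363, adjusted p = 0.00588), with 65.4 and 82.7 CPM in CTO19 noEGF, 10.3 and 12.6 CPM in CTO19 EM, 44.5 and 41.8 CPM in apsMC706 noEGF and 23.4 and 22.6 CPM in apsMC706 EM. Its response was larger in CTO19 by 1.78 (SE 0.197, adjusted p = 0.000244). Sox4, an SRY-box factor, averaged 682 ± 59.5 CPM in CTO19 noEGF and 195 ± 8.42 CPM in CTO19 EM, against 38.8 ± 1.07 CPM in apsMC706 noEGF and 32.8 ± 0.618 CPM in apsMC706 EM, and rose in CTO19 (log2 fold change 1.80, SE 0.0554, with an adjusted p of 3.05e-11) and in apsMC706 (0.25, SE 0.0642, adjusted p = 0.00434).

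Of 14 regulators of epithelial state, all 14 were tested. In CTO19, 10 rose and 0 fell without EGF (median log2 fold change 0.56, against 0.02 for all tested genes), in apsMC706 3 rose and 5 fell (median 0.03), and the difference of the responses passed for 12 of the 14, 11 of them positive (median 0.61, against 56.0% of all tested genes, 30.4% positive). In CTO19, 0 fell at an unadjusted p under 0.05, with DESeq2 or with limma-voom as well. Elf3, an epithelial ETS factor, had 110 and 117 CPM in CTO19 noEGF, 60.2 and 62.2 CPM in CTO19 EM, 68.1 and 69.1 CPM in apsMC706 noEGF and 57.6 and 57.0 CPM in apsMC706 EM. It rose in CTO19 (log2 fold change 0.89, SE 0.0451, with an adjusted p of 4.12e-10) and in apsMC706 (0.26, SE 0.0460, adjusted p = 0.000139), and over both lines (0.57, SE 0.126, adjusted p = 0.00818). Ovol1, a zinc-finger factor that represses Zeb1 in epithelia, averaged 24.9 ± 1.12 CPM in CTO19 noEGF and 10.3 ± 1.16 CPM in CTO19 EM, and its rise in CTO19 was 1.27 on the log2 scale (SE 0.124, adjusted p = 3.62e-06).

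**Figure D4:**
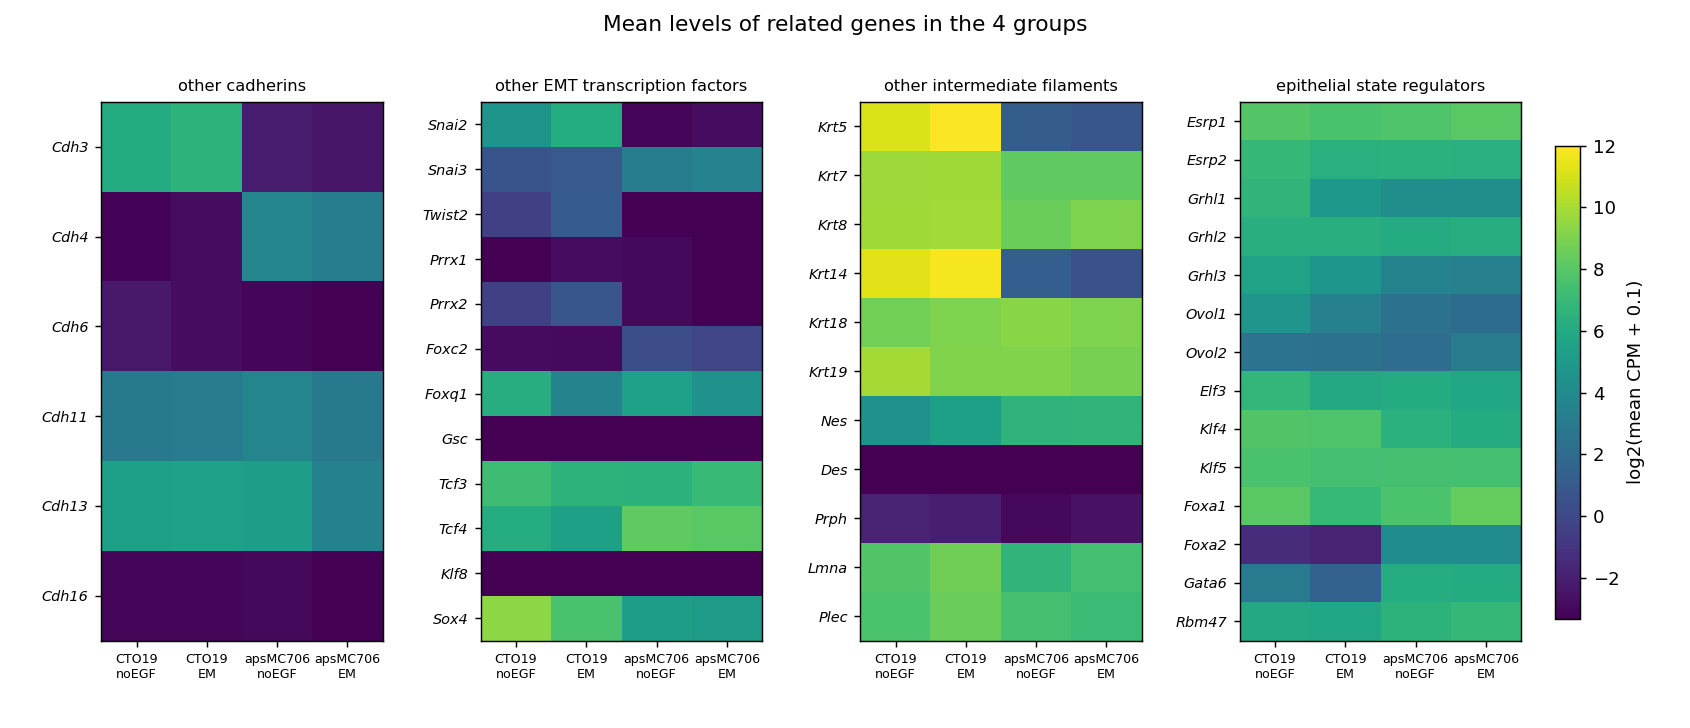
Mean level of other cadherins, other EMT transcription factors, other intermediate filaments and regulators of epithelial state in the 4 groups, as log2 of mean CPM plus 0.1, in colour. Snai2, Cdh3, Krt5 and Krt14 are bright in the 2 CTO19 columns and dark in the 2 apsMC706 columns, Cdh4 and Foxa2 the reverse.

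Of 10 adherens junction partners, all 10 were tested; 6 rose and 1 fell without EGF in CTO19 (median log2 fold change 0.23), and 5 rose and 4 fell in apsMC706 (median 0.05). The difference of the responses passed for 6, 4 of them positive (median 0.22). The rises over both lines with the smallest p were those of the cell adhesion nectins Nectin4 (log2 fold change 1.68, SE 0.0679, adjusted p = 2.00e-05) and Nectin2 (0.79, SE 0.0548, adjusted p = 9.25e-05). Nectin4 had 64.0 and 71.8 CPM in CTO19 noEGF and 21.0 and 22.3 CPM in CTO19 EM, against 18.3 and 19.7 CPM in apsMC706 noEGF and 5.71 and 5.85 CPM in apsMC706 EM. The falls with the smallest p were those of Nectin3 (-0.60, SE 0.158, adjusted p = 0.0172) and of the actin linker vinculin, Vcl (-0.25, SE 0.0831, adjusted p = 0.0381). Of the other 6 cadherins, 4 were tested; in CTO19 1 fell and 0 rose (median -0.27), and in apsMC706 3 rose and 0 fell (median 0.69), also at an unadjusted p under 0.05, with DESeq2 and with limma-voom. The difference passed for 2, both negative (median -1.45). Cdh13 (T-cadherin) had the smallest p over both lines (log2 fold change 0.85, SE 0.364, adjusted p = 0.0916) and did not pass, except with DESeq2 (0.89, adjusted p = 0.0290). It rose in apsMC706 (1.80, SE 0.0598, adjusted p = 3.18e-12).

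Of 11 other intermediate filament genes, 9 were tested; 1 rose and 5 fell in CTO19 (median log2 fold change -0.46), and 2 rose and 2 fell in apsMC706 (median 0.24). The difference passed for 6, 4 of them negative (median -0.52). Over both lines Krt19, a keratin of simple epithelia, rose (log2 fold change 0.54, SE 0.129, adjusted p = 0.0112), while the nuclear lamin Lmna (-0.76, SE 0.0595, adjusted p = 0.000132) and the simple keratin Krt8 (-0.29, SE 0.0966, adjusted p = 0.0399) fell. Of 17 genes of actin bundling and the cell cortex, 16 were tested; 2 rose and 9 fell in CTO19 (median log2 fold change -0.35), and 5 rose and 5 fell in apsMC706 (median 0.11). The difference passed for 12, 10 of them negative (median -0.76). Moesin (Msn) and radixin (Rdx), which tie actin to the membrane, fell in each line as Fscn1 did in CTO19. The related gene Ezr of this list did not follow them in apsMC706, with 741 and 719 CPM in noEGF against 478 and 461 CPM in EM. In CTO19, Ezr had 378 and 358 CPM in noEGF against 397 and 409 CPM in EM. Msn changed by -1.63 in CTO19 (SE 0.0842, adjusted p = 9.91e-07) and -0.45 in apsMC706 (SE 0.0885, adjusted p = 0.00253). Rdx changed by -2.36 in CTO19 (SE 0.0522, adjusted p = 2.74e-13) and -0.65 in apsMC706 (SE 0.0390, adjusted p = 1.41e-09). Espn, a bundling protein of microvilli, rose over both lines (0.95, SE 0.302, adjusted p = 0.0352).

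Of 27 other matrix genes, 19 were tested; 6 rose and 7 fell in CTO19 (median log2 fold change 0.04), and 5 rose and 3 fell in apsMC706 (median 0.52). The difference passed for 11, 8 of them negative (median -0.84). Over both lines the proteoglycan Spock2 (log2 fold change 2.10, SE 0.240, adjusted p = 0.000537) and thrombospondin 1, Thbs1 (0.92, SE 0.173, adjusted p = 0.00429), rose with Fn1. Thbs1 averaged 447 ± 39.7 CPM in CTO19 noEGF and 313 ± 25.7 CPM in CTO19 EM, against 30.1 ± 0.794 CPM in apsMC706 noEGF and 11.8 ± 0.480 CPM in apsMC706 EM. Of the basement membrane genes, Col18a1 fell over both lines (-0.84, SE 0.216, adjusted p = 0.0158). Lamb1 fell in CTO19 (-1.97, SE 0.114, adjusted p = 2.68e-06), while in apsMC706 it had 24 counts in noEGF and 12 in EM (0.99, SE 0.874, adjusted p = 0.357). Its value over both lines passed (-1.53, SE 0.434, adjusted p = 0.0231), but was -0.73 with DESeq2 (adjusted p = 0.259). Of 10 fibronectin receptor genes, 8 were tested; 1 rose and 3 fell in CTO19 (median -0.04), and 6 rose and 0 fell in apsMC706 (median 0.33). The difference passed for 4, all negative (median -0.3). In apsMC706, 0 fell at an unadjusted p under 0.05, with DESeq2 or with limma-voom as well. The integrin Itgb8 had 1 count in CTO19 noEGF and 0 in CTO19 EM, so its value over both lines (1.06, SE 0.290, adjusted p = 0.0196) is that of apsMC706, where it rose (1.03, SE 0.253, adjusted p = 0.00246), though not past the threshold with DESeq2 (adjusted p = 0.0518). Over both lines the syndecan Sdc4 rose (0.28, SE 0.0631, adjusted p = 0.00907), and Itga5, the alpha chain of the main fibronectin integrin, fell (-0.64, SE 0.190, adjusted p = 0.0265).

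Of 14 genes of the TGF-beta pathway, all 14 were tested; 7 rose and 5 fell in CTO19 (median log2 fold change 0.07), 7 rose and 1 fell in apsMC706 (median 0.32), and the difference of the responses passed for 11 of the 14, 9 of them negative (median -0.38, against 56.0% of all tested genes, 25.6% negative). Smad3, a receptor-activated Smad, rose over both lines (log2 fold change 0.41, SE 0.0747, adjusted p = 0.00367), as did Skil, which represses Smad targets (0.51, SE 0.110, adjusted p = 0.00801). The TGF-beta target gene Tgfbi fell in CTO19, by 1.72 (SE 0.0933, adjusted p = 2.04e-09) on the log2 scale, and had 3 counts in apsMC706 noEGF and 0 in apsMC706 EM.

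The rule took 28 genes from these lists, 27 of them because they were past the threshold over both lines, so their passing is fixed by the choice and describes no list. Values over both lines not yet given include Ovol1 (log2 fold change 0.82, adjusted p = 0.0198), Sox4 (1.04, 0.0265) and Msn (-1.04, 0.00948). Others are Rdx (-1.47, 0.00943), Snai2 (-1.54, 0.000313), Twist2 (-1.65, 0.00729) and Tgfbi (-1.59, 0.0123). With DESeq2 the Tgfbi value was -1 (adjusted p = 0.236). In apsMC706, Snai2 had 0 to 2 counts per library, Tgfbi 0 to 3 and Twist2 0. The values of Snai2, Twist2 and Tgfbi over both lines thus rest on CTO19. When 1 library was left out, 13 of the 27 no longer passed. Among them were Nectin3 (adjusted p 0.0501 and 0.0512, without replicate 1 of CTO19 noEGF and of apsMC706 noEGF), Ovol1 (0.0660 and 0.0610) and Sox4 (0.0864 and 0.0918, for both genes without CTO19 EM replicate 1 and replicate 2), Msn (0.0534, without CTO19 noEGF replicate 1), and Col18a1 (0.0849 and 0.0754, without CTO19 noEGF replicate 1 and replicate 2). Tgfbi (0.0536 to 0.0697) and Lamb1 (0.0748 to 0.121) did not pass without any 1 of the 4 CTO19 libraries, and Itgb8 (0.0623 to 0.0716) without any 1 of the 4 apsMC706 libraries. Itga5 did not pass without any 1 of the CTO19 libraries or apsMC706 EM replicate 1 (0.0572 to 0.115). Espn did not pass without apsMC706 EM replicate 2 or either CTO19 EM library (0.0516 to 0.0969), Vcl without any apsMC706 library, CTO19 EM replicate 1 or CTO19 noEGF replicate 2 (0.0755 to 0.110), and Krt8 without any library but CTO19 EM replicate 1 (0.0604 to 0.115).

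The genes most like each member over the 8 libraries were found by the root mean square difference of log2 CPM after each gene was centred on its own mean, among 9043 or 9044 genes whose log2 CPM averaged 3 or more. With 2 lines and 2 media, this likeness mostly measures a shared difference between 4 groups, and libraries of a group are not independent conditions. The nearest genes to Cdh1 were Ttc33 (0.0287), Top2b (0.0405) and Ptprk (0.0458). The nearest to Fn1 were Lor (0.232), Plekhg1 (0.284) and Ephb6 (0.312), which like Fn1 were highest in CTO19 noEGF: Lor, loricrin of the cornified envelope, averaged 89.9 CPM in CTO19 noEGF, 27.5 CPM in CTO19 EM, 8.28 CPM in apsMC706 noEGF and 4.06 CPM in apsMC706 EM.

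The nearest to Fscn1 was Col17a1 (0.352), a hemidesmosome collagen of basal epithelia, with 201 CPM in CTO19 noEGF, 519 CPM in CTO19 EM, 0.239 CPM in apsMC706 noEGF and 0.107 CPM in apsMC706 EM, followed by Prl2c2 (0.496), which has close paralogs that can share its reads, and Cxcl5 (0.521). Those of Sparc were Gsta1 (0.462), Col8a1 (0.559) and the laminin chain Lama3 (0.579), and those of Zeb2 were Ehd2 (0.419), Samd12 (0.559) and Gpr137b (0.585), all higher in CTO19. The nearest to Vim was St3gal6 (0.415), with 12.3 CPM in CTO19 noEGF, 22.1 CPM in CTO19 EM, 311 CPM in apsMC706 noEGF and 436 CPM in apsMC706 EM, followed by Fads3 (0.498) and Ism1 (0.567). The distances of Cdh1 are the smallest in part because Cdh1 spans the smallest range, 0.67 log2 units between its lowest and highest library, against 4.59 for Fn1 and 12.1 for Fscn1. Zeb1 and Snai1 averaged under 1 CPM and were not matched.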

How the data were processed

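Libraries were made from poly(A) RNA with a kit that does not mark strand, per the labels' protocols. Reads were aligned with STAR 2.7.0a to mm10, per the submitters' processing notes. How reads were counted, with which annotation and with or without strand, is not given in the sources used here. Raw counts of 32728 Ensembl genes were deposited, of which 32680 matched GENCODE M21 (mm10), 48 did not and 7747 had no count. That annotation gave names, exon lengths and positions on mm10. Fn1, Zeb2 and Zeb1 share exon bases with genes on the other strand (Apol7d, Zeb2os and Gm10125), which had 0 to 11, 0 to 2 and 0 to 2 counts per library, and without strand their reads cannot be told apart.

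Tests on these deposited counts ran in edgeR 4.0.16 under R 4.3.3. The filter filterByExpr, given the 4 groups, left 16719 genes holding 99.971% of counts, and TMM factors set the scale. Two-sided quasi-likelihood tests with robust moderation gave p-values, adjusted across those 16719 genes after Benjamini and Hochberg, and 0.05 was the threshold. Line and medium were the terms of the model for both lines together (residual degrees of freedom 5, biological variation 16.9%). A model of the 4 group means (4 and 4.27%) served every other comparison. SE is the log2 fold change divided by the square root of F, and counting intervals are exact at 95%.

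The settings varied were the scaling (size factors of DESeq2, or the upper quartile), the filter (none, or 1 CPM in 4 libraries or more), the tool (DESeq2 1.42.0 Wald test, or voom of limma 3.58.1), the design (replicate number as a block, line left out of the model, libraries summed by group, or a fit to a comparison's own 4 libraries) and the omission of any 1 library. Across all 16719 tested genes, correlations between groups of the difference between replicates lay between -0.00825 and 0.0485. Genes of few counts weigh as much as others in them, so they do not decide whether replicate numbers pair libraries. On average over genes, replicates differed by more than sampling noise in every group (mean chi-square of 3.62 to 11.4 per gene). Genes of many counts can weigh most in this mean, so it does not describe a typical gene.

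Named genes were the 10 members, from each list up to 2 genes per direction of smallest p past the threshold over both lines (or, with none past it, the gene of smallest p), and the 3 genes nearest in pattern to each member of at least 1 CPM. Of the genes taken from the lists, 1 is not reported here. The pattern used log2 CPM with a prior count of 2. The members and lists were chosen with earlier results of these data known.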

Additional observations from a re-analysis of the deposited data

Results flagged for a closer look

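CTO19 and apsMC706 responded differently to the medium without EGF by a direct test for Cdh1, Vim and Fn1, and for Fscn1 on few counts in apsMC706 (CTO19 minus apsMC706, edgeR, adjusted over all tested genes). For Cdh1 the difference was 0.49 on the log2 scale (adjusted p = 1.44e-06), with a rise in CTO19. For Vim it was -1.18 (adjusted p = 4.29e-05), with a fall in CTO19. For Fscn1 it was -4.81 (adjusted p = 0.00836), with a fall in CTO19 and 11 counts in noEGF against 1 in EM in apsMC706, and it did not pass without apsMC706 noEGF replicate 2 (-3.42, adjusted p = 0.117), CTO19 EM replicate 1 (0.0570) or CTO19 EM replicate 2 (0.0585). Fscn1 reached the filter on low counts through CTO19 alone, so this value is a description. For Fn1 it was 0.98 (adjusted p = 0.0135), with a rise in both lines that was larger in CTO19. Of all tested genes, 56.0% passed the same test.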

How the results depend on the processing

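Over both lines, 5 of the 10 genes passed. This count was 3 with the DESeq2 Wald test, 3 with the replicate block, and 2 to 5 with each library left out. It was 0 with summed libraries (1 at an unadjusted p under 0.05) and 0 with no line term (0 at an unadjusted p under 0.05), where all tested genes gave 0 and 1806 calls against 8157. In apsMC706, 1 gene passed. This count was 2 with upper-quartile factors, no filter, the stricter filter, the DESeq2 Wald test, limma-voom and the replicate block, 3 with the 4 libraries alone, and 1 to 2 with each library left out. With each library left out the count was 7 to 8 in CTO19, 3 to 4 for the difference of the responses, and 8 for the line difference in either medium.

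Of 762 single estimates under alternatives, 705 kept their direction and side of the threshold, 27 lost and 14 gained the threshold, and 16 took the other sign. Those 16 were Fscn1 over both lines (0.28, DESeq2), 3 of Cdh1 in apsMC706 (0.03 with the stricter filter, 0.01 and 0.01 without a CTO19 noEGF library), 2 of Zeb2 in apsMC706 (0.19 with limma-voom, 3.17 without EM replicate 2), 1 of Sparc in apsMC706 (-0.24 without noEGF replicate 1), 1 of the Zeb2 difference (0.23 without apsMC706 EM replicate 1) and 8 of Vim in apsMC706. For Vim these were 0.05 with DESeq2 size factors, 0.07 with upper-quartile factors, 0.06 with no filter, 0.11 with the stricter filter, 0.05 with the DESeq2 Wald test, 0 without EM replicate 1, and 0.08 and 0.08 without a CTO19 noEGF library. The median of all tested genes in apsMC706 moved by 0.00172 without EM replicate 1 and by 0.0519 to 0.0987 in the other settings named for Vim. With 1 library left out, values in apsMC706 ranged from -0.1 to 0.01 for Cdh1, -1.5 to 3.17 for Zeb2, -0.03 to 0.08 for Vim, 1.78 to 5.49 for Fscn1 and -0.24 to 0.77 for Sparc, and the Zeb2 difference from -4.44 to 0.23. Zeb1 had no value under the stricter filter. The cause was not tested.

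Deviations of same-numbered libraries of different groups were little correlated across genes. The mitochondrial share was higher in replicate 1 than in replicate 2 of every group. Whether the numbers pair the libraries is not stated in the labels. With the replicate block, Fscn1 (adjusted p = 0.0596) and Sparc (0.0523) no longer passed over both lines, nor did, among genes of the lists, Vcl (0.0599), Krt8 (0.0711), Espn (0.0522) and Lamb1 (0.0567). Of the lists, the count of epithelial state regulators over both lines was 4, with a range of 0 to 8. In apsMC706, Zeb1, Zeb2, Fscn1 and Sparc had 1 to 14 counts per group, and depth limits their values.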
